A study of Arabidopsis thaliana with 12 samples.

Results

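The genes described here are the plastid-encoded genes of *Arabidopsis thaliana* for ribosomal proteins and RNA polymerase subunits, with a few further plastid proteins. A probe set, the group of short probes that reads 1 gene on the array, was included when the probe table listed a single plastid locus for it and the gene's symbol began with rpl, rps, rpo, mat, clp, acc, ycf or ccs. This gave 25 probe sets of 22746 on the array outside its controls. They comprised 7 genes of large-subunit ribosomal proteins (rpl14, rpl16, rpl20, rpl22, rpl32, rpl33 and rpl36), 8 of small-subunit ribosomal proteins (rps2, rps3, rps4, rps14, rps15, rps16, rps18 and rps19), 4 of RNA polymerase subunits (rpoA, rpoB, rpoC1 and rpoC2) and matK, an intron maturase. The other 5, clpP, accD, ycf3, ycf4 and ccsA, met the same naming rule but encode a protease subunit, a subunit of acetyl-CoA carboxylase, a pair of photosystem I assembly proteins and a cytochrome c assembly protein. They are not gene expression machinery in the strict sense. A further 6 genes, rps12, rps7, rpl2, rpl23, ycf1 and ycf2, were read by probe sets that list several genes, so they are not analysed here.

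Chloroplasts keep a small genome of their own with its own transcription and translation. Its genes are read by a bacterial-type polymerase, whose core subunits are rpoA, rpoB, rpoC1 and rpoC2 and whose sigma factors come from the nucleus, and by nuclear-encoded phage-type polymerases. Many plastid genes lie in clusters that are transcribed together and then cut into smaller RNAs, so neighbouring genes can share a transcript and are not independent of each other. Plastid ribosomes are mixed assemblies of plastid-encoded and nuclear-encoded proteins. Plastid messages mostly lack the stable poly(A) tails of nuclear messages, and the sources used here do not say how the RNA was primed for labelling.

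RNA came from whole seedlings of the wild-type accession Ws or of the mutant rop10-1, named for ROP10, a small GTPase of plants. Both were grown for 7 days in liquid medium with 3% sucrose, shaken at 150 rpm, then given 1 µM abscisic acid (ABA, a stress and dormancy hormone) or the solvent DMSO as mock for 4 hours. This gave 4 groups, Ws and rop10-1 each with mock or ABA. In every group 3 biological replicates, numbered 1 to 3 in the titles, were hybridised to 1 ATH1 array each. The seedlings carried shoots and roots together, so fewer chloroplast-rich cells and less plastid RNA per cell cannot be told apart, and the nature of the rop10-1 allele and its own transcript were not analysed here.

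The deposited signal, a linear probe set intensity, was scaled to nearly the same level on all arrays, with a 2% trimmed mean of 500.04 to 500.048 and medians of 180.2 to 203. Whole seedlings should carry green tissue and root. Of 23 listed green tissue markers 3 had a tested probe set, with a summed signal of 23001 to 31082 per array. Of 11 root markers 2 did, with a summed signal of 209 to 345. These root genes, EXPA7 and EXPA18, averaged 135 and 146, below the median of every array. Without detection calls their distance from background is not known. Differences below are log2 differences of signal plus 16, tested with limma over 15922 probe sets, with an adjusted p under 0.05 as a call. All 12 arrays entered 1 fit. The number of arrays limits the precision.

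Of the 25 genes 24 were tested, with mean signals from 228 for rpoB to 13299 for rps4. Probe sets differ in how well they bind, so these signals do not rank the genes by abundance. The gene below the filter on low values was rps14, which read 31 to 82.5 over the 12 arrays with a mean of 60.8, at 27.7% of the way up the ranked probe sets of an array on average. When it was fitted without the filter, none of its differences passed (adjusted p at least 0.539). The plot of signal by array shows all 25 genes.

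**Figure D1:**
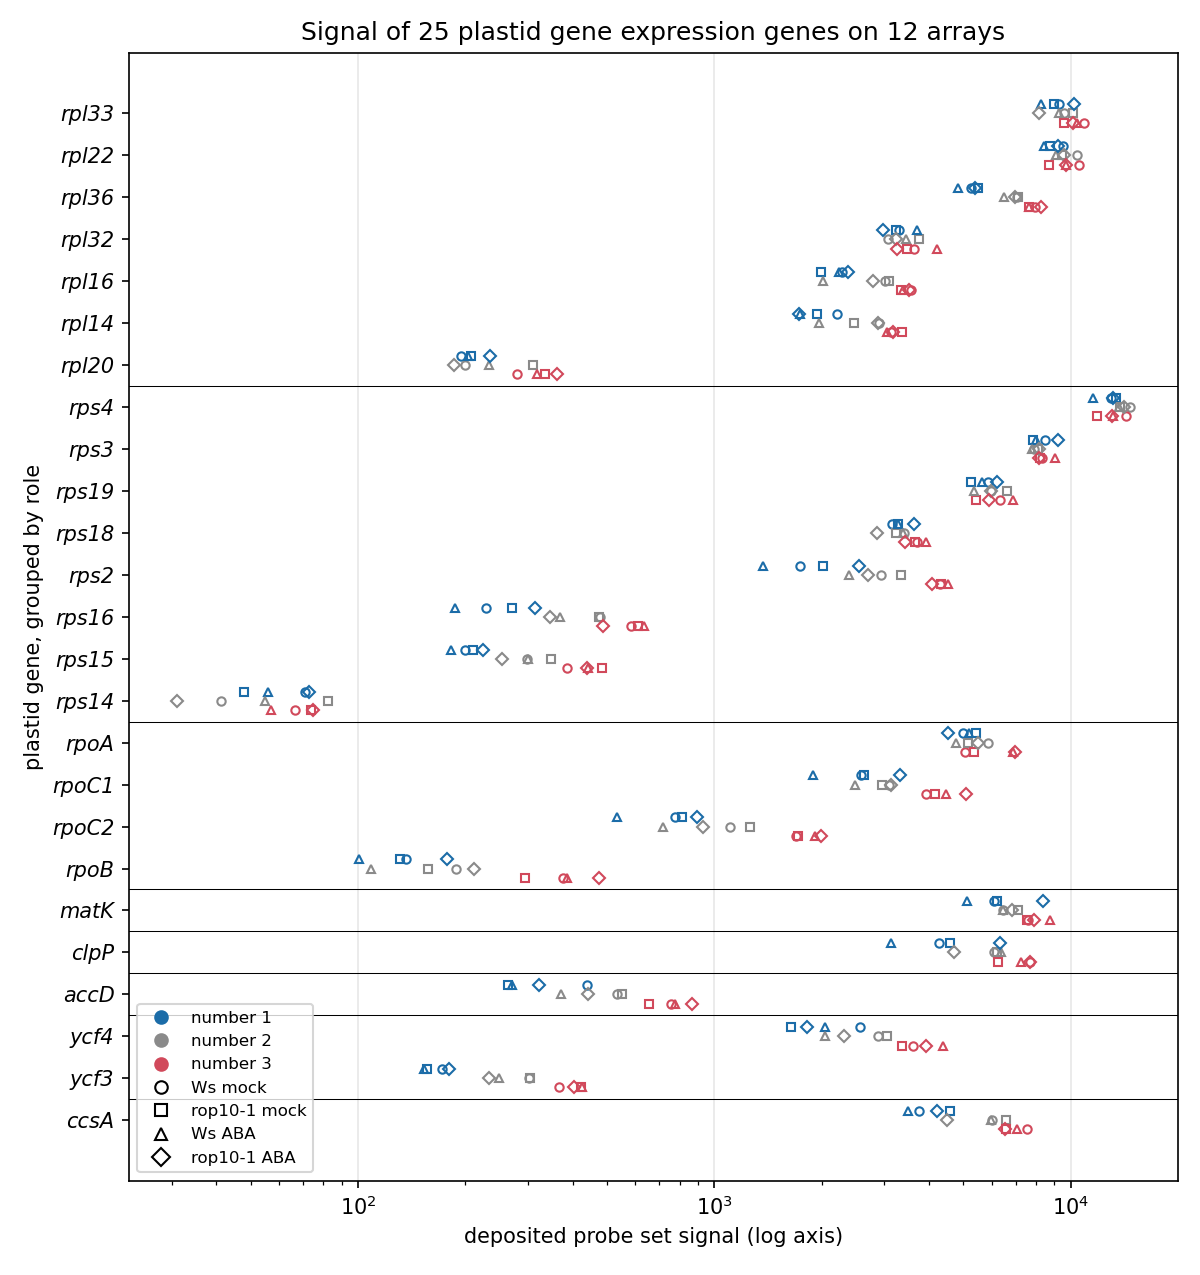
Deposited signal of the 25 plastid genes (log axis) on 12 arrays, 1 symbol per array, with genes grouped by role, colours for the replicate number and shapes for the group. For rpoB, the 4 arrays of number 3 lie at 295 to 474 and those of number 1 at 100.4 to 178, whereas for rps4 the numbers overlap.

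The first question was whether ABA changed the plastid genes. None of the 24 was called by limma in either genotype or in the average of both, and the differences were small. In Ws the differences between ABA and mock ran from -0.38 (accD) to 0.18 (rpl32), with a median of -0.11, and in rop10-1 from -0.23 (ccsA) to 0.49 (rpoB), with a median of 0.0045. Over all tested probe sets the median was -0.04 in Ws and -0.05 in rop10-1, and 6.54% were called in Ws and 6.54% in rop10-1. The replicate numbers paired the arrays, and with the number as a block 15.7% of all probe sets passed in Ws and 15.6% in rop10-1, again with 0 of the 24 genes among them. At an unadjusted p under 0.05 there were 0 plastid genes in either genotype without the block, against 20.1% of all probe sets in Ws and 19% in rop10-1. With the block there were 4 in Ws (29.2% of all) and 1 in rop10-1 (29.1% of all).

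Averaged over both genotypes, ABA minus mock lay between -0.17 (rps16) and 0.07 (rpoA), with 16 genes below 0 and 8 above, a median of -0.04 and a median of -0.05 over all probe sets. Of all probe sets 15.5% were called in this average and 28.0% with the block. The smallest adjusted p of the plastid genes was 0.631, that of rpl14, and 0.18 with the block. With the block the 95% intervals of the 24 differences all fell within -0.45 to 0.31, so a change in the average ABA response beyond those bounds lies outside the interval of every gene. No gene had an unadjusted p under 0.05 in this average, with or without the block, against 39.1% and 29.2% of all probe sets.

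For rpl14, a protein of the large subunit, the 3 arrays averaged 2745 ± 476 (SD, n = 3) in Ws mock, 2248 ± 698 in Ws ABA, 2592 ± 719 in rop10-1 mock and 2591 ± 760.3 in rop10-1 ABA. Its ABA difference was -0.16 (SE 0.20). The ccsA gene, for a protein that attaches haem to c-type cytochromes, averaged 5769 ± 1903 in Ws mock, 5512 ± 1826 in Ws ABA, 5913 ± 1163 in rop10-1 mock and 5071 ± 1264 in rop10-1 ABA. Its ABA difference was -0.15 (SE 0.21, adjusted p = 0.694), and in all 6 same-number pairs of arrays the ABA array was the lower. The pairs gave -0.10, -0.01 and -0.09 in Ws and -0.12, -0.55 and -0.02 in rop10-1. The share of all probe sets with 6 pairs in 1 direction was not counted. In both genes the 4 groups overlapped.

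Among the brightest genes of each role the groups also lay close together. The large-subunit gene rpl33 averaged 9922 ± 864 in Ws mock, 9323 ± 1078 in Ws ABA, 9553 ± 569.7 in rop10-1 mock and 9504 ± 1167 in rop10-1 ABA. For rps4, which encodes a protein of the small subunit, the averages were 13978 ± 879, 12795 ± 1109, 12994 ± 980.1 and 13429 ± 564 in the same order. The matK gene, whose product splices plastid introns, averaged 6702 ± 783 in Ws mock, 6773 ± 1849.8 in Ws ABA, 6948 ± 685 in rop10-1 mock and 7709 ± 783 in rop10-1 ABA. The groups of each gene overlapped, and none of the 3 passed in any comparison of treatment or genotype.

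The second question was whether rop10-1 differed from Ws. In mock, rop10-1 minus Ws ran from -0.29 (accD) to 0.31 (rpl20), with a median of -0.0023, and 0 of 24 genes were called, against 0.0314% of all probe sets (0.0440% with the block). Under ABA the differences ran from -0.26 (rpl32) to 0.63 (rpoB), with a median of 0.07 and 20 of 24 above 0. Again 0 were called, against 0.0188% (0.270% with the block). Over all probe sets the median under ABA was -0.0021, and of 42 other tested single plastid genes 21 were above 0 (median 0.0012). Neighbouring genes can share a transcript, so the signs of the 24 are not independent. In the average of both treatments the differences of the 24 lay between -0.14 (ycf4) and 0.24 (rpoC2), with 0 called, against 0.0377% (1.43% with the block). The block's 95% intervals in that average fell within -0.40 to 0.50. At an unadjusted p under 0.05 there was 1 gene under ABA, rpl32 (adjusted p = 0.677), against 7.15% of all probe sets, and none in mock (3.73% of all) or in the average (9.56% of all). The block gave 1 gene in mock (9.55% of all), 4 under ABA (14.7% of all) and 1 in the average (18.5% of all).

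Under ABA the polymerase genes of 1 cluster had the largest genotype differences of the 24. There rpoB, the β subunit, averaged 288 ± 162 in rop10-1 and 198 ± 162 in Ws. The difference was 0.63 (SE 0.52, adjusted p = 0.872), with an SE of 0.16 and an adjusted p of 0.0975 with the block. The 3 same-number pairs of rpoB gave 0.74, 0.87 and 0.29. In mock it averaged 194 ± 87.9 in rop10-1 and 234 ± 126 in Ws, and the 3 pairs gave -0.06, -0.24 and -0.34. Neither difference passed. The ABA and genotype comparisons share groups of arrays, so their differences are not independent of each other.

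The genes next to rpoB in the same cluster, rpoC1 and rpoC2, encode the β′ and β″ subunits. Under ABA rpoC1 averaged 3850.1 ± 1080.3 in rop10-1 and 2944 ± 1344 in Ws (0.44, SE 0.30, adjusted p = 0.819, 0.131 with the block). For rpoC2 the averages were 1272 ± 622 and 1055 ± 753 (0.38, SE 0.47, adjusted p = 0.926, 0.327 with the block). With the block the SEs of rpoC1 and rpoC2 were 0.13 and 0.17. All 3 same-number pairs of each were above 0, and for rpoC2 so were the 3 pairs in mock. The fourth subunit gene rpoA, which lies elsewhere, averaged 5659 ± 1231 and 5608 ± 1123.

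The third question was whether the ABA response differed between genotypes. The interaction, the ABA difference in rop10-1 minus that in Ws, ran from -0.32 (rpl32) to 0.84 (rpoB). Its median was 0.14 with 17 of 24 genes above 0, against a median of 0.00027 over all probe sets. Other plastid genes leaned the same way. Of 42 other tested single plastid genes 30 were above 0 (median 0.10), as were 6 of 7 probe sets that list several plastid genes (median 0.21). By limma 0 of 24 genes were called, as were 0% of all probe sets with and without the block. Unadjusted, 0 plastid genes had p under 0.05, against 1.89% of all probe sets, and 4 with the block (rpoB, rpl22, rpoC1 and rpl32), against 5.04% of all.

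For rpoB the same-number pairs of ABA minus mock gave -0.39, -0.71 and 0.03 in Ws and 0.40, 0.40 and 0.66 in rop10-1. The interaction of 0.84 had an SE of 0.73 (adjusted p = 1). With the block its SE was 0.22 and its adjusted p 0.908. The block's 95% interval, not adjusted for the number of genes, was 0.35 to 1.33. The ABA difference of rpoB in rop10-1 alone was 0.49 (SE 0.52, adjusted p = 0.667). With the block it came close to the threshold (SE 0.16, adjusted p = 0.0578). With the block it passed when Ws ABA 2 or Ws ABA 3 was left out (adjusted p = 0.0411 and 0.0264), where 2534 and 2294 of the 15922 tested probe sets passed. With any other single array left out none of the 24 genes passed in that comparison. The smallest adjusted p of the 24 was then 0.143 without rop10-1 mock 3, 0.133 without rop10-1 ABA 2 and 0.131 without rop10-1 ABA 3.

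Without the block, rpl32 and rpl22 had the smallest p of the 24 in the interaction. The rpl32 gene, a large-subunit gene, read 3306, 3069 and 3638 in Ws mock, 3712, 3455 and 4215 in Ws ABA, 3231, 3743 and 3467 in rop10-1 mock and 2972, 3231 and 3254 in rop10-1 ABA, each on numbers 1 to 3. It averaged 3338 ± 285 (SD, n = 3) in Ws mock and 3794 ± 386 in Ws ABA, and 3480.3 ± 256 in rop10-1 mock and 3152 ± 156 in rop10-1 ABA. Its ABA difference was 0.18 (SE 0.11, adjusted p = 0.42) in Ws and -0.14 (SE 0.11, adjusted p = 0.56) in rop10-1. The groups overlapped in each genotype. The rpl22 gene, also of the large subunit, read 9539, 10418 and 10542 in Ws mock, 8419, 9091 and 9719.9 in Ws ABA, 8762, 9478 and 8671 in rop10-1 mock and 9181, 9593 and 9667 in rop10-1 ABA in the same order. It averaged 10167 ± 547 in Ws mock and 9077 ± 651 in Ws ABA, and 8970.3 ± 442 in rop10-1 mock and 9480.2 ± 262 in rop10-1 ABA. Its ABA difference was -0.16 (SE 0.09, adjusted p = 0.32) in Ws and 0.08 (SE 0.09, adjusted p = 0.672) in rop10-1, and its genotype difference in mock was -0.18 (SE 0.09, adjusted p = 0.996). The averages of both genes changed order between the genotypes, and no such difference passed.

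**Figure D2:**
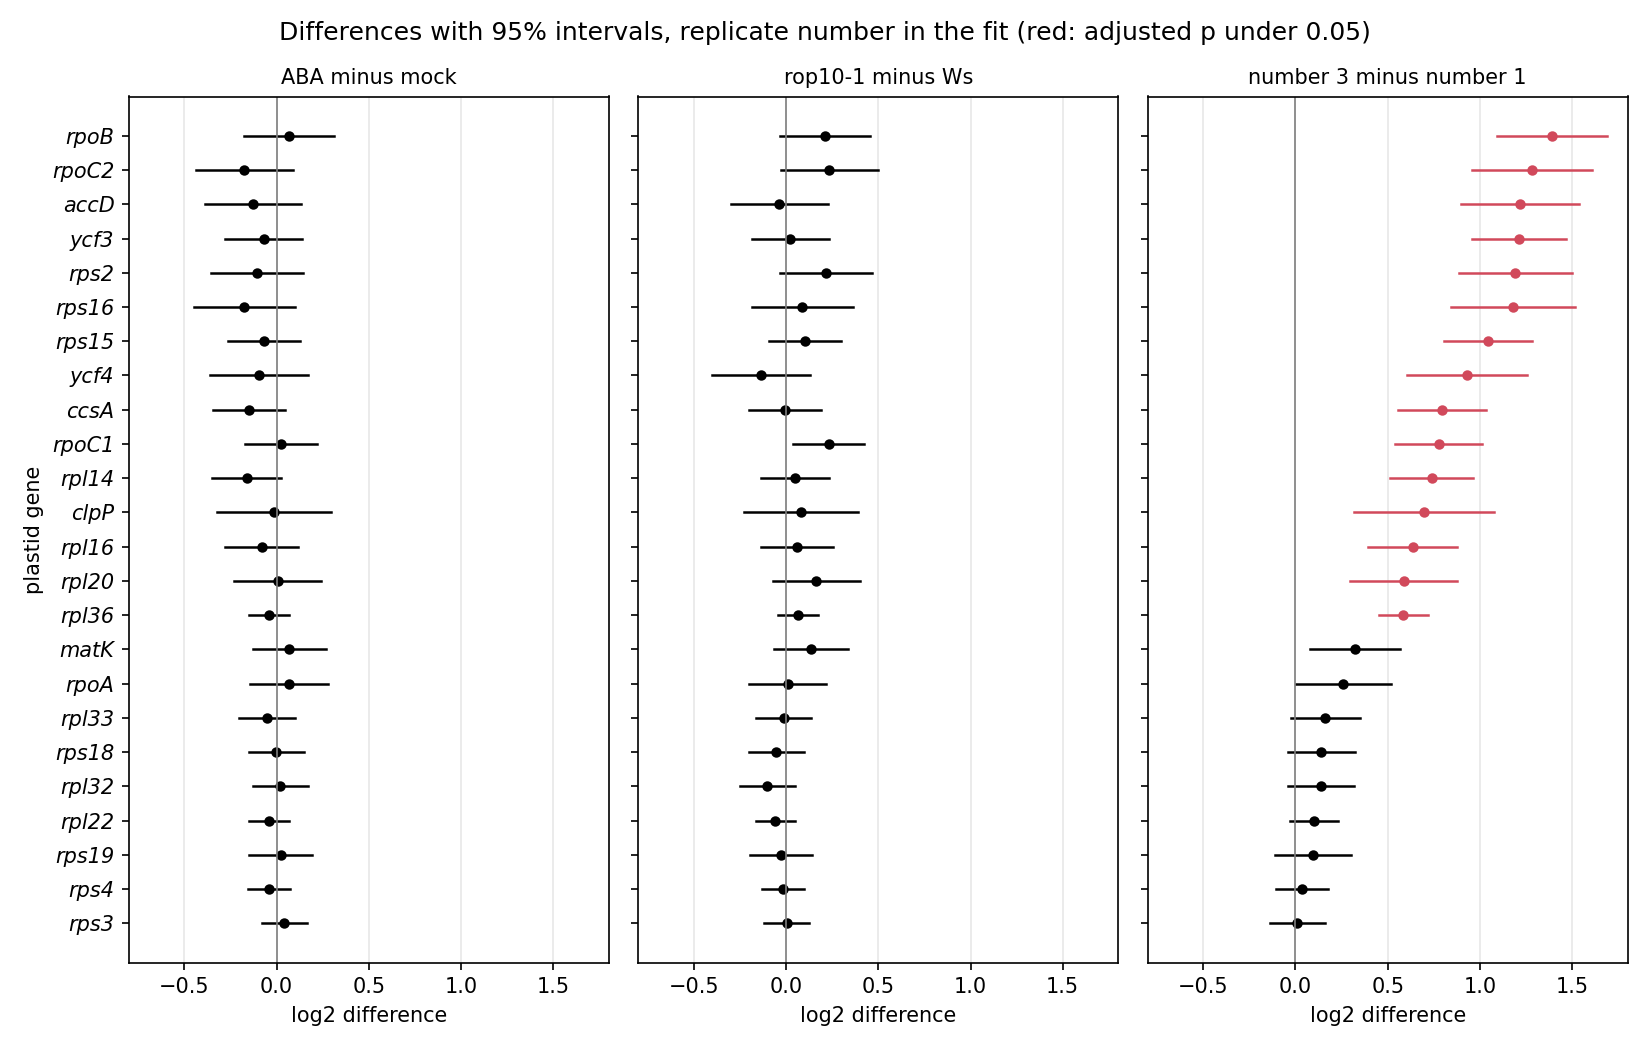
Log2 differences of the 24 tested genes with their 95% intervals from the fit with the replicate number, for ABA minus mock and rop10-1 minus Ws (both averaged over the other factor) and for number 3 minus number 1. Red marks an adjusted p under 0.05, in the right panel that of the difference between number 3 and number 1 itself. The first panels hold none, and the right panel holds 15, from rpoB at 1.39 to rpl36 at 0.59.

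The largest differences among these genes lay between replicate numbers. An F test of the number, within groups, called 15 of the 24 genes, against 20.0% of all tested probe sets (3192 of 15922). The share over all probe sets rose with signal. In 24 bins by mean signal it was 4.37% in the dimmest, 38.9% in bin 23 (median signal 3222) and 36.3% in bin 24, the brightest. All 15 were higher on number 3 than on number 1. The 24 genes had a median difference, number 3 minus number 1, of 0.67, against -0.03 over all probe sets, and all 24 were above 0. The numbers are names without an order, and the sources used here do not say what they stand for beyond the replicate.

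By pairs of numbers, 15 genes were higher on number 3 than on number 1 (7.31% of all probe sets were called higher), 8 on number 2 than on number 1 (9.19% of all) and 6 on number 3 than on number 2 (0.804% of all). None was called lower. In 14 of the 24, every one of the 4 number 3 arrays lay above every number 1 array, which held for 4.60% of all probe sets. The exception among the 15 was clpP.

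In what follows the 4 signals of each number stand in the order Ws mock, rop10-1 mock, Ws ABA, rop10-1 ABA. Differences are number 3 minus number 1. Each adjusted p beside such a difference, and each call, is that of the F test over the 3 numbers, not a test of the difference alone. The polymerase genes are given first. The rpoB gene read 137, 131, 100.4 and 178 on number 1, 188, 157, 109 and 212 on number 2, and 376, 295, 385 and 474 on number 3. Its 4 number 3 arrays lay above all others, and the difference of 1.39 (SE 0.14, adjusted p = 0.000151) was the largest of the 24. It was present in each group, at 1.36 in Ws mock, 1.08 in rop10-1 mock, 1.79 in Ws ABA and 1.33 in rop10-1 ABA.

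The rpoC2 gene read 778, 812, 533 and 895 on number 1, 1107, 1256, 715 and 930.1 on number 2, and 1693, 1714, 1918 and 1990.2 on number 3 (1.28, SE 0.15, adjusted p = 0.000522). For rpoC1 the signals were 2577, 2632, 1895 and 3319 on number 1, 3089, 2963, 2478 and 3139 on number 2, and 3925, 4159.5, 4459.7 and 5093 on number 3 (0.78, SE 0.11, adjusted p = 0.00136). In both, number 3 stood above numbers 1 and 2 without overlap. By contrast rpoA, the α subunit, read 4978, 5409.9, 5178 and 4510.2 on number 1, 5865, 5163, 4764 and 5508 on number 2, and 5046, 5365, 6883 and 6958 on number 3. Its numbers overlapped, the difference was 0.26 (SE 0.12), and the F test did not call the gene (adjusted p = 0.251).

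**Figure D3:**
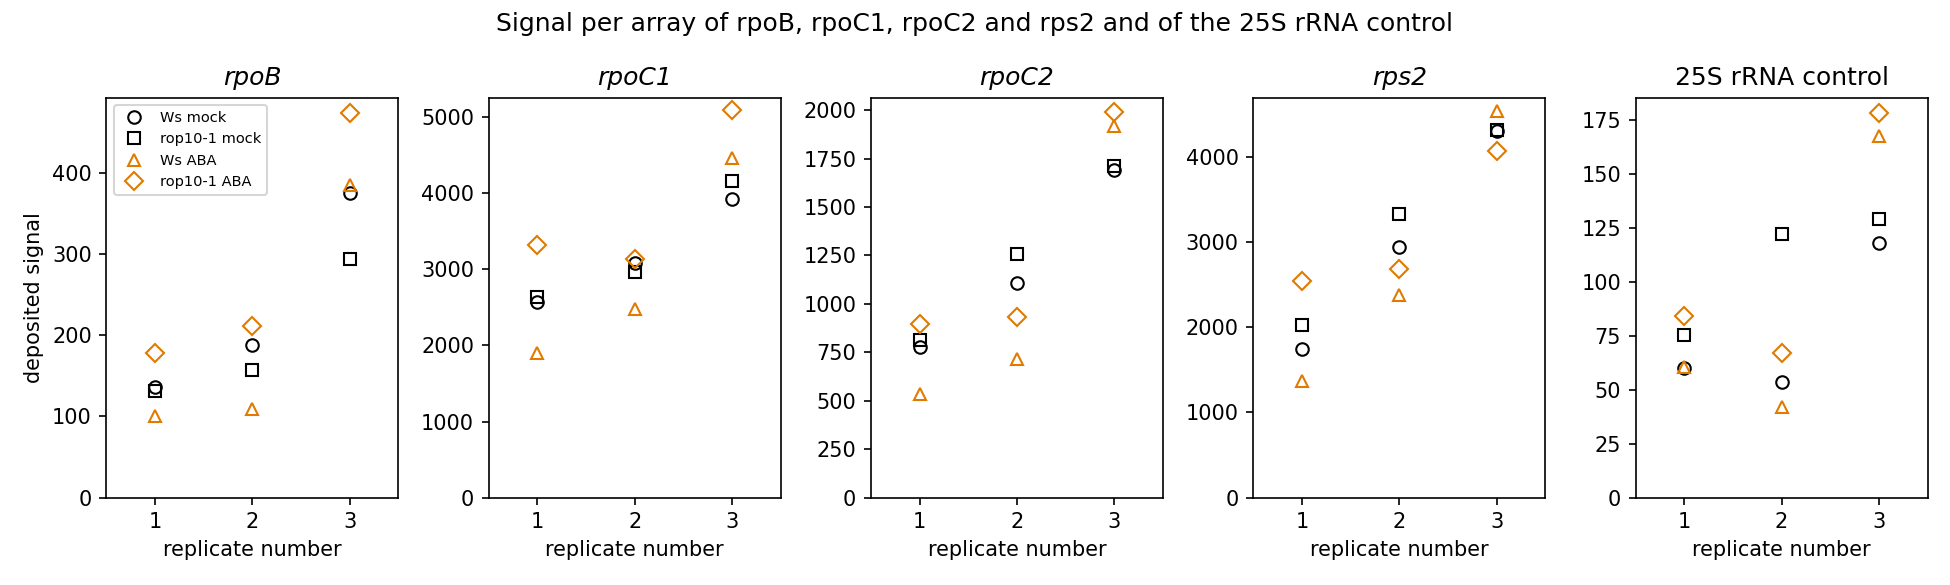
Deposited signal (linear axes from 0) of the neighbouring plastid genes rpoB, rpoC1, rpoC2 and rps2 and of the 25S rRNA control probe set, against replicate number, with 1 symbol per array. The 4 number 3 arrays of rps2 lie at 4068 to 4534 and its number 1 arrays at 1372 to 2547, and the 25S control lies at 118 to 178 on number 3 and 60 to 84.1 on number 1.

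Of the 7 tested small-subunit genes 3 were called. The rps2 gene, which follows rpoC2 in the same cluster, read 1744, 2023, 1372 and 2547 on number 1, 2942, 3329.8, 2381 and 2689.6 on number 2, and 4302, 4317, 4534 and 4068 on number 3 (1.19, SE 0.14, adjusted p = 0.000655). For rps16, a gene with an intron, they were 228, 271, 188 and 313 on number 1, 477, 474, 369.5 and 346 on number 2, and 583, 610, 634 and 488 on number 3 (1.18, SE 0.15, adjusted p = 0.0011). In both genes numbers 2 and 3 lay above all number 1 arrays, but for 1 number 2 array of rps2.

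The rps15 gene read 200.1, 210.4, 183 and 224 on number 1, 298, 347, 299.5 and 254 on number 2, and 387, 482, 443 and 439.9 on number 3. The 3 numbers did not overlap, and the difference was 1.04 (SE 0.11, adjusted p = 0.000333). The uncalled small-subunit genes were rps18 (0.14), rps19 (0.10), rps4 (0.04) and rps3 (0.0096). The brightest of them, rps4, read 12983, 13378, 11554 and 13171 on number 1, 14646, 13724, 13688 and 14075 on number 2, and 14307, 11880.1, 13144 and 13040 on number 3. Its number 3 and number 1 arrays overlapped (SE 0.06, F test adjusted p = 0.257).

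Of the 7 large-subunit genes 4 were called. The rpl36 gene, for the smallest protein of the large subunit, read 5247, 5488, 4817 and 5392 on number 1, 7069, 7125, 6516 and 6979 on number 2, and 7928, 7645, 7616 and 8248 on number 3. The 3 numbers stood apart with no overlap, and the difference was 0.59 (SE 0.06, adjusted p = 0.000272). The rpl14 gene read 2214, 1944, 1739.9 and 1729 on number 1, 2888, 2467, 1959.8 and 2878 on number 2, and 3133, 3365, 3044 and 3166 on number 3 (0.74, SE 0.10, adjusted p = 0.00184).

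The other called large-subunit genes were rpl16 (0.64, SE 0.11, adjusted p = 0.0062) and rpl20 (0.59, SE 0.13, adjusted p = 0.0187). The rpl20 gene read 194, 207, 203 and 235 on number 1, 199.9, 309, 233 and 186 on number 2, and 280.2, 335, 319 and 361 on number 3, so number 3 lay above number 1 and number 2 overlapped with both. In mock, where it had the highest genotype difference of the 24, it averaged 284 ± 67.5 in rop10-1 and 225 ± 48.1 in Ws (0.31, SE 0.26, adjusted p = 0.996). Not called were rpl33 (0.16), rpl32 (0.14) and rpl22 (0.10). The brightest, rpl33, read 9269.7, 8983, 8267 and 10193 on number 1, 9596, 10122, 9282 and 8157 on number 2, and 10902, 9553, 10422 and 10162 on number 3, and its numbers overlapped (adjusted p = 0.289).

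All 5 genes outside transcription and translation were called too. The accD gene, the plastid-encoded subunit of the enzyme that starts fatty acid synthesis, read 439, 263, 271 and 323 on number 1, 535, 552, 372 and 443 on number 2, and 756, 654, 774 and 868 on number 3 (1.22, SE 0.15, adjusted p = 0.000764). For ycf3 the signals were 172, 156, 153 and 181 on number 1, 301, 304, 249 and 234 on number 2, and 367, 421, 425 and 405 on number 3 (1.21, SE 0.12, adjusted p = 0.000178). The 3 numbers of ycf3 did not overlap, and those of accD overlapped between numbers 1 and 2 only.

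The second photosystem I assembly gene, ycf4, read 2554, 1639.8, 2047 and 1814 on number 1, 2885, 3048, 2044 and 2316 on number 2, and 3619.8, 3350.4, 4386 and 3912 on number 3 (0.93, SE 0.15, adjusted p = 0.00388). For ccsA they were 3750.1, 4569.7, 3495 and 4201 on number 1, 6026, 6579, 5986 and 4489.8 on number 2, and 7531, 6590.3, 7053 and 6521 on number 3 (0.79, SE 0.11, adjusted p = 0.00152). In both, number 3 lay above number 1 throughout.

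The clpP gene, for the plastid-encoded catalytic subunit of the Clp protease, read 4258, 4574, 3121 and 6349 on number 1, 6079.8, 6193, 6366 and 4697 on number 2, and 7705, 6261, 7271 and 7692 on number 3. It was called at 0.70 (SE 0.17, adjusted p = 0.0364), but the rop10-1 ABA array of number 1 overlapped with number 3, and the call was lost in 13 alternative settings. The matK gene read 6075, 6196, 5115 and 8372 on number 1, 6452, 7112, 6436 and 6845 on number 2, and 7579, 7536, 8768 and 7908 on number 3. Its difference was 0.32 (SE 0.11). The gene missed the threshold of the F test (adjusted p = 0.109) and passed it without the rop10-1 ABA array of number 1 (adjusted p = 0.0178).

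Called and uncalled genes differed in signal, with overlap, which is given as a description with no test. The mean signals of the 15 called genes ran from 228 (rpoB) to 6673 (rpl36), and those of the 9 uncalled ones from 3410.5 (rps18) to 13299 (rps4). Among the other plastid genes the 36 called ones reached a mean signal of 12185 and the 6 uncalled ones lay at 2352 to 10692. Whether the measurement itself narrows differences at high signal was not tested.

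**Figure D4:**
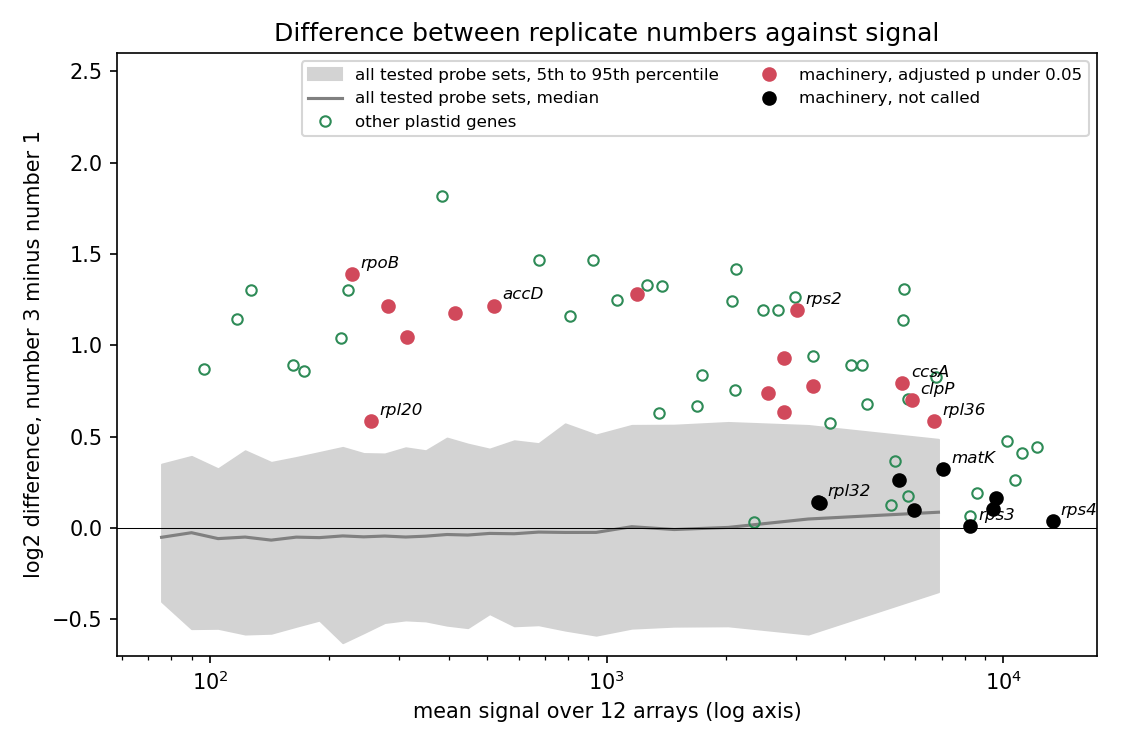
Log2 difference between number 3 and number 1 against the mean signal (log axis) for the 24 genes (filled), the other plastid genes (open) and all tested probe sets (median line and 5th to 95th percentile band by signal). The genes from rpoB to rps2 lie above the band, and the uncalled ones, from rps18 to rps4, lie at signals of 3410.5 and more.

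By the order in the gene table, some neighbours on the plastid genome had like differences and others did not. In the cluster rps2, rpoC2, rpoC1, rpoB the differences were 1.19, 1.28, 0.78 and 1.39, so rpoC1 lay below its neighbours. The genes accD and ycf4, with 1 photosynthesis gene between them, had 1.22 and 0.93. The adjacent genes rpl33, rps18 and rpl20 had 0.16, 0.14 and 0.59.

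Within the large ribosomal protein cluster the values parted. At one end rps19, rpl22 and rps3 had 0.10, 0.10 and 0.0096, and further along rpl16, rpl14 and rpl36 had 0.64, 0.74 and 0.59, followed by rpoA with 0.26. The neighbouring genes ycf3 and rps4 had 1.21 and 0.04, and rpl32 and ccsA had 0.14 and 0.79. These groups were picked after the values were seen.

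**Figure D5:**
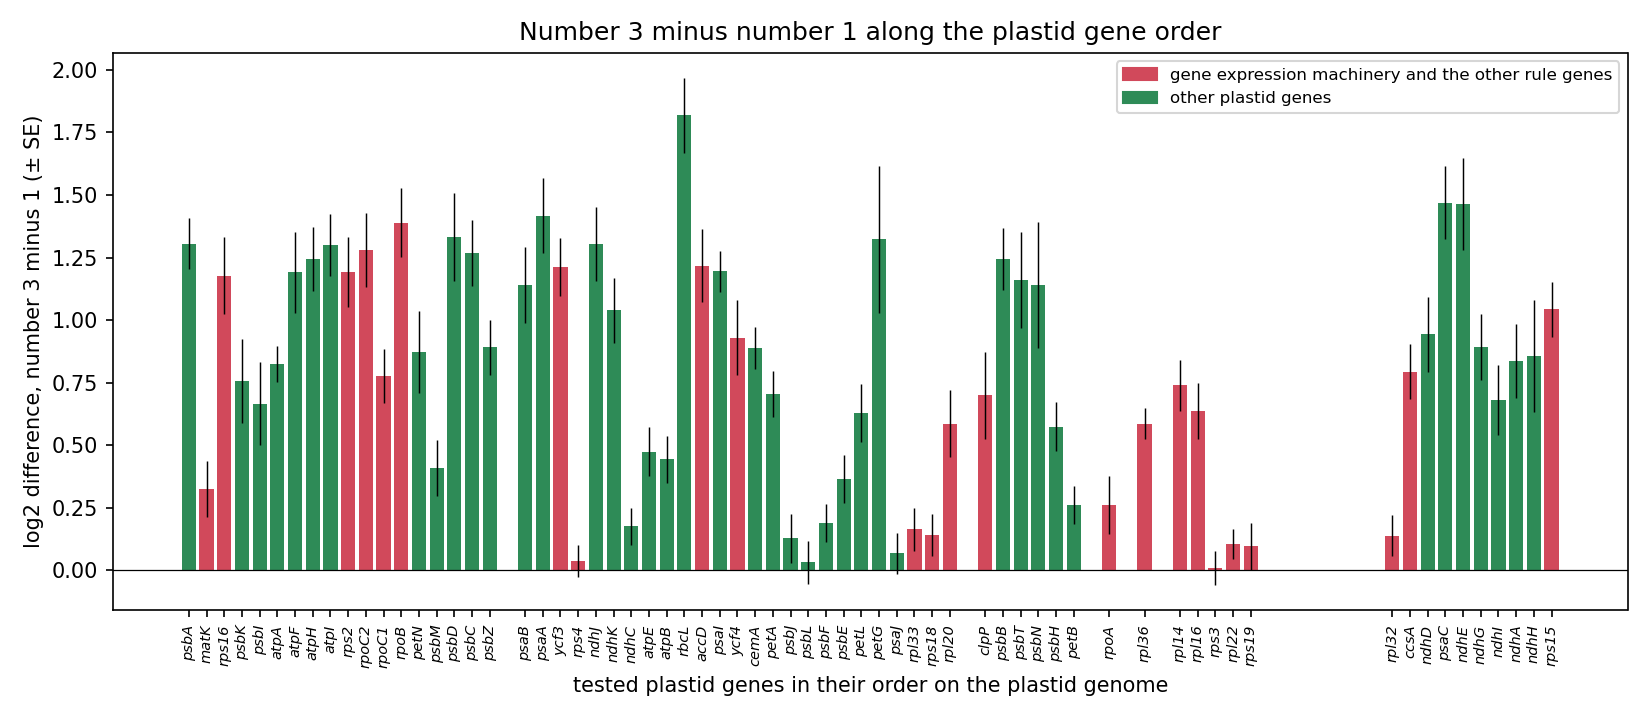
Log2 difference between number 3 and number 1 (bars, ± SE) for the tested single-gene plastid probe sets in the order of the genes on the plastid genome, in red for the 24 genes described here and in green for the others. Blank places are genes without a tested single-gene probe set. All bars lie above 0, and among the red ones the lowest is rps3 at 0.0096 and the highest rpoB at 1.39.

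The same direction held for the plastid genes of photosynthesis and of the NADH dehydrogenase-like complex. Of 42 other single plastid genes tested, 36 were called by the F test, with a median of 0.89 for number 3 minus number 1. The difference between the 2 classes of plastid genes was not tested. Of 9 tested genes of the mitochondrial genome 3 were called, with a median of 0.10. None of the 42, and none of the 9, was called for ABA or genotype without the block, and with the block 2 of the 42 were called in the average ABA response, against the 28.0% of all.

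Some other measures moved with the number too, and their part in the result was not tested. The 25S rRNA control probe set, which reads cytosolic ribosomal RNA, gave 60 to 84.1 on number 1, 42.1 to 122 on number 2 and 118 to 178 on number 3. The log2 ratios of 3′ to 5′ signal of actin (0.24 to 0.59 on number 1, 0.40 to 0.50 on number 3), GAPDH and ubiquitin controls overlapped between the numbers.

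The summed signal of the 3 green tissue genes was 24274 to 26195 on number 1, 23001 to 25755 on number 2 and 25006 to 31082 on number 3. The rise on number 3 was in Ws only (31082 in mock and 30648 with ABA). In rop10-1 number 3 read below number 1, at 25006 against 25420 in mock and 25414 against 26195 with ABA. Of the 3 green tissue genes LHCB4.2, a light-harvesting gene, was called by the F test (number 3 minus number 1, 0.31, SE 0.11, adjusted p = 0.0103), and LHCB4.1 and PSAE-1 were not. The 2 root genes EXPA7 and EXPA18 summed to 215 to 345, 209 to 343 and 266 to 308, and neither was called. Of 5 guard cell markers FMA and AT1G22690 were tested and neither was called for the number, but AT1G22690 was lower with ABA on average (-1.17, SE 0.21, adjusted p = 0.00269).

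The nuclear genes whose products work with the plastid-encoded ones were compared from a fixed list of 88. Only 18 had a tested probe set of their own: 10 of 34 plastid ribosomal proteins, 5 of 14 Clp subunits and 3 of 10 assembly and import partners. The lists of sigma factors and plastid RNA polymerases (8 genes), polymerase-associated proteins (12), plastid acetyl-CoA carboxylase subunits (4) and plastid RNA turnover (6) had no tested probe set of their own.

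None of the 18 was called for ABA or genotype without the block. Their median was -0.08 in the average ABA response. With the block 2 of the 18, against 28.0% of all probe sets, passed as lower with ABA. They were AT1G49380 of the assembly list (-0.50, SE 0.22 without the block, adjusted p = 0.0157 with it) and AT5G24490 of the ribosomal list (-0.20, SE 0.13, adjusted p = 0.0308 with it). With the block AT5G24490 also passed as lower in rop10-1 in the average of both treatments (-0.36, adjusted p = 0.0259, 0.421 without the block). It was 1 of the 18, against 1.43% of all probe sets. By the F test of the number 5 of the 18 were called, against 20.0% of all probe sets, with a median of 0.24 for number 3 minus number 1.

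Of these 5, AT1G49380 had 0.72 (SE 0.16, adjusted p = 0.0243), the ribosomal protein gene AT3G13120 0.42 (SE 0.11, adjusted p = 0.0389), the Clp gene AT4G12060 0.40 (SE 0.09, adjusted p = 0.0252) and the assembly gene AT1G22700 0.36 (SE 0.09, adjusted p = 0.0402). AT5G24490 had -0.01 (SE 0.08), and its F test (adjusted p = 0.00504) also covers number 2. The Clp gene CLPP4 and the assembly gene CcdA were not called, at 0.07 (SE 0.08) and 0.39 (SE 0.16).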

How the data were processed

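Biotin-labelled RNA of 12 seedling samples was measured on ATH1 arrays, 1 per sample. The deposited table gives linear probe set intensity for 22810 probe sets (64 controls), made with GCOS 1.1.1 per the submitters' processing notes. Neither its scaling step nor detection calls are stated in the sources used here. Gene names came from an old platform annotation, and gene order from a RefSeq gene table.

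Tests ran on log2(value + 16) in limma 3.58.1 (R 4.3.3), with an intensity trend in eBayes, two-sided p-values and Benjamini-Hochberg adjustment over 15922 probe sets. Controls and the 30% of probe sets with the lowest mean log2 value were left out. Fold changes on this scale understate the change of low genes. The main fit held 1 mean per group, and the replicate number was added as a block as an alternative and tested by a moderated F test. SEs of ABA, genotype and interaction differences are from the main fit unless said to be with the block.

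The numbers pair the arrays: after each group mean was subtracted, arrays of unlike groups correlated at r = 0.215 to 0.711 where the number was the same (18 pairs) and at -0.475 to 0.11 where it differed (36 pairs), and without the plastid probe sets at 0.198 to 0.708 and -0.469 to 0.123.

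All genes of the naming rule are named. Values per array are given for the 12 called genes with the smallest p, for the 2 smallest p of each comparison and for the brightest of each role. Other settings tried were a pseudocount of 1 or 64, a low filter of none or 50%, quantile normalization, median centring, no trend, array weights, the block, a fit of the 2 groups alone, and arrays, numbers or groups left out. The genes and lists were chosen with earlier results of these data known, so the pattern over replicate numbers is a description of these arrays. The procedure was tested on simulated data. Noise in them was drawn independently for each probe set, so they do not cover genes that share a transcript.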

Additional observations from a re-analysis of the deposited data

Results flagged for a closer look

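In 2 genes the ABA minus mock differences of the 3 same-number pairs all went one way in Ws and all the other way in rop10-1. Only the tested genes of the naming rule were searched for this. The share of all probe sets with such a split was not counted, so the count cannot be set against it. For rpl32 the pairs were 0.17, 0.17 and 0.21 in Ws and -0.12, -0.21 and -0.09 in rop10-1, and the difference of the responses was -0.32 (SE 0.16, limma adjusted p = 1). For rpl22 they were -0.18, -0.20 and -0.12 in Ws and 0.07, 0.02 and 0.16 in rop10-1, and the difference was 0.24 (SE 0.12, limma adjusted p = 1). Neither passed the test of the difference itself. With the replicate block the SE was 0.13 for rpl32 and 0.10 for rpl22, and the adjusted p was 0.908 for both.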

How the results depend on the processing

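Without the replicate block, 0 of the 24 genes were called for ABA, genotype or their interaction under any alternative setting run. With the block on all arrays it was 0 as well, so the block changed no call of treatment or genotype. With the block and 1 array left out the counts were 0 to 2 for ABA in Ws, 0 to 1 for ABA in rop10-1 and 0 to 1 for the average ABA response, and 0 in the other comparisons. Without Ws ABA 3, 2 genes were lower with ABA in Ws (rpoB and rpoC2) and 1 was higher in rop10-1 (rpoB). Without Ws ABA 2, 1 was higher in rop10-1 (rpoB). Without rop10-1 ABA 1, 1 was lower in the average response (rps16). The cause was not tested. The F test of the number called 13 to 16 genes without 1 array, 13 to 16 without a group, and 14 with no low filter or no trend, against 15. Apart from clpP, rpl20 lost its call in 4 settings and matK gained one in 2, and no sign turned. Without detection calls the limit set by background is not known for the dim genes, rps14 above all.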
